A study of Gallus gallus with 54 samples.

Results

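Spleen was the lymphoid tissue of this series on indigenous Ethiopian chickens (Gallus gallus), and 18 of its 54 libraries, those with spleen in the title, are described here. Low altitude origin gave 9 of them (L1 to L9), a breed that the labels call adapted to heat, and high altitude origin gave 9 (H1 to H9), a breed that they call not adapted to heat. The other 36 libraries were of heart and breast muscle. Messenger RNA of the tissue was sequenced, and the comparison asked how the spleens of the 2 origins differ in gene expression. Altitude and heat adaptation go together in the labels and cannot be told apart; sex, age, sampling day and batch are not given in the sources used here. The labels do not say how the numbered samples were taken, so p-values measure the spread between these libraries.

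As background, the avian spleen filters blood and is a main site where immune responses start, since birds lack mammal-like lymph nodes. Its red pulp holds blood cells and macrophages, and its white pulp holds T cell sheaths around arterioles and B cell areas around capillary ellipsoids. A spleen library is therefore an average over many cell types, and fewer cells of a type and less RNA per cell cannot be told apart in it.

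The files name genes by Ensembl identifier alone and do not pair identifiers with symbols, and none of the 24881 matched the reference table used here. The genes are therefore described by abundance, by spread between libraries and by how selective they were for spleen, and 4 are named by identifier only. Levels are CPM (counts scaled to the size of the library, adjusted by edgeR's TMM factors), mostly as log2 CPM. Ratios between tissues and CPM minima used CPM without those factors. Differences are log2 fold changes of low over high altitude, so a value of 1 is a doubling in low altitude spleens.

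The libraries carried the profile of 1 tissue. All 18 spleen libraries were closest to another spleen library, with Spearman correlations of at least 0.919 among spleens. Correlations with a heart or breast muscle library were at most 0.768. Both used 1 filter run over the libraries of all tissues together, which also keeps genes expressed in a single tissue. The 71 genes selective for heart held 0.0104% ± 0.00328 of the counts in low altitude spleens and 0.0104% ± 0.00226 in high altitude spleens (SD, n = 9 each). The 92 genes selective for breast muscle held 0.0829% ± 0.0136 in low altitude spleens and 0.0726% ± 0.0117 in high altitude spleens. Total counts were 12.5 to 14.3 M (mega) in low altitude spleens and 11.6 to 14.2 M in high altitude spleens (means 13.6 and 12.8 M; two-sided exact permutation p = 0.0650, adjusted over 10 library measures 0.337). Genes with at least 1 count numbered 16621 to 17734 per low altitude spleen and 16635 to 17435 per high altitude spleen.

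The spleens did not group by origin. The nearest neighbour of a library by rank correlation was of its own altitude for 9 of 18 libraries. The median correlation was 0.960 between low altitude spleens (36 pairs), 0.953 between high altitude spleens (36 pairs) and 0.955 between the altitudes (81 pairs). The pattern that took most of the variance, component 1 of a principal component analysis of log2 CPM with 25.01%, set 6 libraries apart. L3 and L8 of the low altitude spleens and H1, H4, H7 and H8 of the high altitude spleens scored -64.67 to -25.34, while the other 12 scored 9.01 to 37.14. Mean scores were 11.4 ± 27.1 in low altitude and -11.4 ± 35.3 in high altitude spleens (SD, n = 9 each), a difference within the spread (exact permutation p = 0.134, adjusted p = 0.446). Without L8 that difference was 30.53 (exact permutation p = 0.0448, not adjusted). None of components 1 to 5 differed after adjustment over the 10 measures; the smallest exact permutation p among them was 0.0674, for component 4, with an adjusted p of 0.337.

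**Figure D1:**
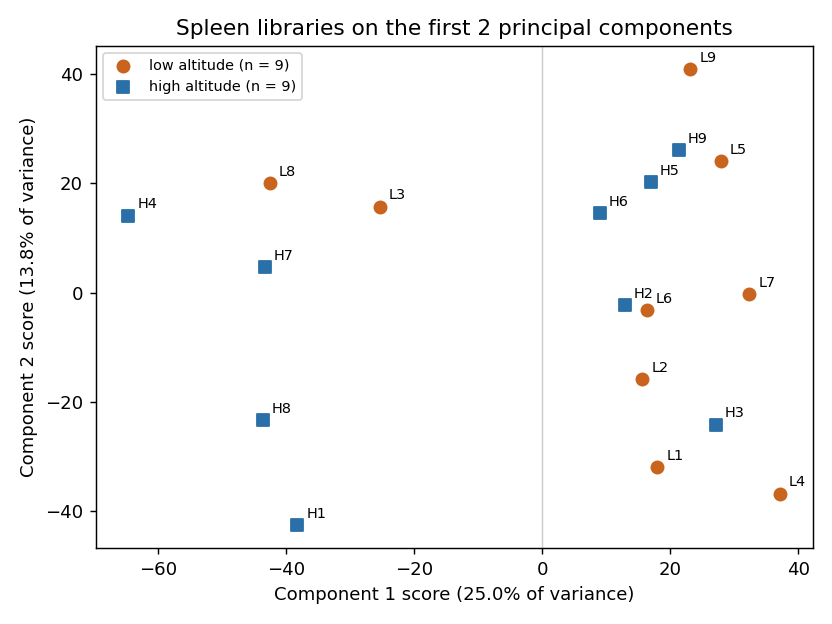
Scores of the 18 spleen libraries on component 1 (x axis, 25.01% of the variance) and component 2 (y axis, 13.8%), computed from log2 CPM and without units, with 1 point per library and low altitude in orange circles and high altitude in blue squares. H1, H4, H7, H8, L3 and L8 lie left of 0, and the remaining libraries of both altitudes lie together on the right.

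Component 1 held most of the variance of a minority of genes. Of the 13092 genes tested, 1408 (10.8%) had more than 50% of their variance between libraries along it, 541 lower and 867 higher in the libraries on the negative side. Among the 2031 genes at least 8 times higher in spleen than in either other tissue, 357 (17.6%) did so, against 558 (8.82%) of the 6325 genes under 2-fold. Both classes were set from mean CPM that include these same spleens. What separated those 6 libraries is not given by the labels. The counts by p-value, the named genes and the genes selective for spleen are therefore given with and without them below. The classes of abundance and of spread are given with all 18 libraries only.

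No gene passed the test between the altitudes in spleen. Of 13092 genes, 0 (0%) had a Benjamini-Hochberg adjusted p under 0.05 in edgeR's quasi-likelihood test, and the smallest adjusted p was 0.511. At an unadjusted p under 0.05 there were 756 genes (5.77%), where 654.6 are expected with no difference. They were split nearly evenly, 386 (2.95%) higher and 370 (2.83%) lower in low altitude spleens. No gene had all 9 low altitude libraries on 1 side of all 9 high altitude libraries (0%). The gene with the least overlap kept 79 of its 81 low-high library pairs in 1 order, and 4 genes kept at least 95% of them.

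The differences were small for most genes. The absolute log2 fold change had a median of 0.13, a factor of 1.09, and a 90th percentile of 0.48, a factor of 1.40. Of all genes, 1222 lay past 0.5, 230 past 1 (1.76%) and 26 past 2. Those past 1 were 102 higher and 128 lower in low altitude spleens. Among these 230, 67 (29.1%) had more than 50% of their variance along component 1, against 10.8% of all genes. Of the 67, 50 were higher and 17 lower in the libraries on its negative side. Without the 6 libraries apart 1.47% of genes were past 1, and their direction was not counted. For 623 genes (4.76%) the difference of the mean log2 CPM was larger than the pooled SD between libraries of an altitude. Over all genes 6612 log2 fold changes were positive and 6480 negative, with a median of 0.0020; TMM scaling centres them near 0, so this balance is set by the scaling.

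Large differences sat among low and moderate levels. Of the 1155 genes with an average under 1 log2 CPM, 48 (4.16%) were past 1 log2, and of the 4286 genes between 1 and 4 log2 CPM, 131 (3.06%). Between 4 and 7 log2 CPM there were 43 of 6157 (0.698%), 16 higher and 27 lower. At 7 log2 CPM and over there were 8 of 1494 (0.535%), and all 8 were lower in low altitude spleens. The share of genes at an unadjusted edgeR p under 0.05 was 6.84%, 7.16%, 5.13% and 3.61% over these 4 classes from low to high, against 5.77% over all genes.

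**Figure D2:**
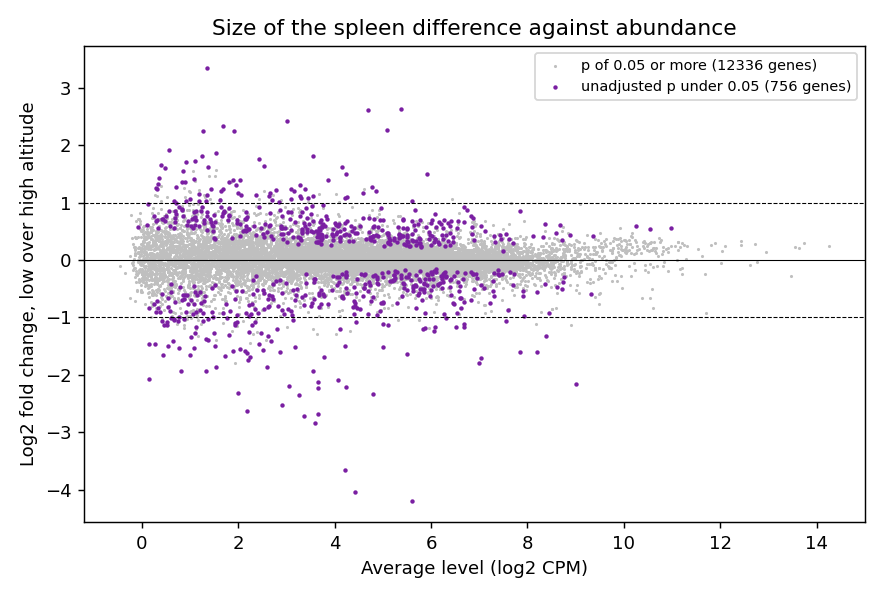
Log2 fold change of low over high altitude spleens (y axis) against the average level in log2 CPM (x axis), with 1 point per gene and the genes at an unadjusted edgeR p under 0.05 in purple; dashed lines mark a log2 fold change of 1 in either direction. Points past the dashed lines are mostly under 7 log2 CPM, and 74 of the 100 most abundant genes lie above 0.

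The 100 most abundant genes, with 26.7% of all spleen counts, leaned towards low altitude by a small amount. Of them, 74 were on the higher and 26 on the lower side in low altitude spleens, and the median log2 fold change was 0.20, against 0.0020 over all genes. Their log2 fold changes ran from -0.92 to 0.60, and 0 of them passed edgeR's adjusted threshold. At an unadjusted p under 0.05 there were 3 (3%), against 5.77% of all genes. Each library's own 100 most abundant genes took 28.6% ± 2.59 of the counts in low altitude spleens, with a lowest value of 23.4%, a median of 29.1% and a highest of 31.4%. In high altitude spleens they took 27.0% ± 2.75, with a lowest of 24.3%, a median of 26.0% and a highest of 33.0% (SD, n = 9 each). The groups overlapped over most of their range (exact permutation p = 0.209, adjusted p = 0.476). The median of the 100 genes was 0.10 without the 6 libraries apart on component 1, 0.32 without H3 and 0.05 with the log2 total count as a covariate. It was positive in every setting tried, and the part of depth in it was not tested further.

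Most differences were measured closely enough to bound them. The 95% interval of the log2 fold change lay wholly between -1 and 1 for 10825 genes (82.7%), which leaves a doubling and a halving outside the interval. That share was 47.6% under 1 log2 CPM, 74.7% from 1 to 4, 92.8% from 4 to 7 and 91.0% at 7 and over. The interval lay within 0.5 in either direction for 44.9% of all genes and for 66.1% of those from 4 to 7 log2 CPM, but for 0.693% of those under 1. For 17.2% of genes the interval crossed a 2-fold difference in either direction, and for 13 genes it lay wholly beyond one, without adjustment for the number of genes.

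The spread between libraries was alike in both origins. The median SD of a gene's log2 CPM was 0.39 among low altitude spleens and 0.39 among high altitude spleens, and the SD was the larger one at low altitude for 49.2% of genes. By abundance the median SD at low and at high altitude was 0.68 and 0.67 under 1 log2 CPM, 0.51 and 0.50 from 1 to 4, 0.30 and 0.30 from 4 to 7, and 0.32 and 0.32 at 7 and over. The typical distance of a library from the mean of its own group, as the median over genes, was 0.286 ± 0.0671 log2 CPM at low and 0.289 ± 0.0445 at high altitude (SD, n = 9 each; exact permutation p = 0.922, adjusted p = 0.922). L2 at 0.197 and H6 at 0.211 were the most typical of their origins, and L4 at 0.389 and H8 at 0.338 the least.

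**Figure D3:**
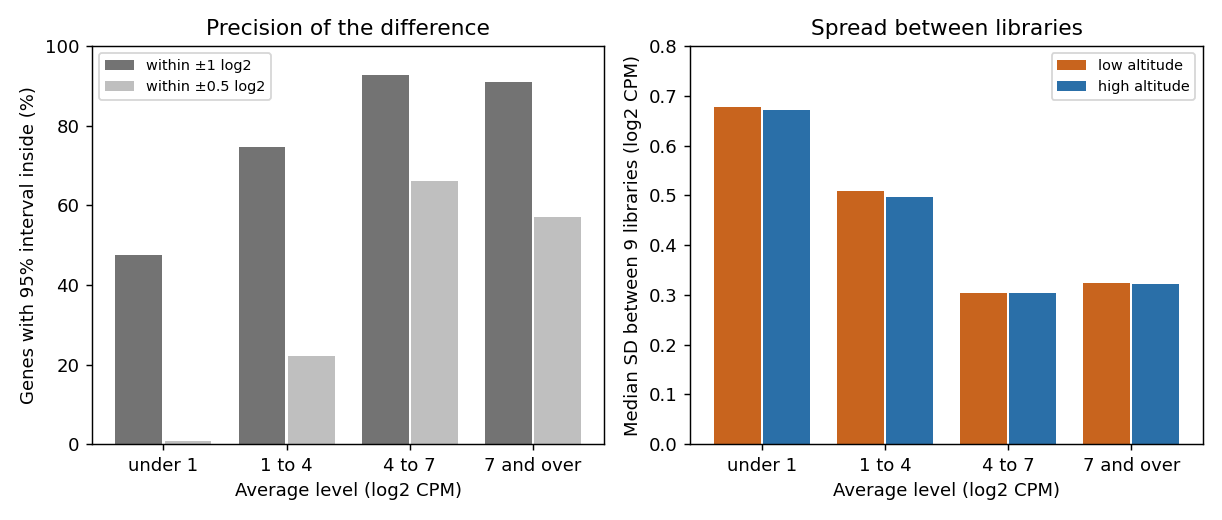
Left, the percentage of genes in each class of average level whose 95% interval of the log2 fold change lay within 1 (dark) or 0.5 (light) of 0; right, the median SD between the 9 libraries of an altitude, in log2 CPM, with low altitude in orange and high altitude in blue. Precision rises up to the class of 4 to 7 log2 CPM, and the bars of the 2 origins are of nearly equal height in every class.

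Differences followed the genes that varied most within an origin. Genes were grouped by the biological coefficient of variation (BCV), edgeR's estimate of the relative spread between libraries beyond counting error. Of the 2595 genes with a BCV under 0.2, 0 lay past 1 log2 and 3.04% had an unadjusted edgeR p under 0.05, 21 higher and 58 lower in low altitude spleens. In that class as a whole 37.4% of log2 fold changes were positive, against 50.5% over all genes. From a BCV of 0.2 to 0.4 there was 1 of 7140 past 1 log2, from 0.4 to 0.8 there were 130 of 3009 (4.32%), and at 0.8 and over there were 99 of 348 (28.4%). Of those 348 genes, 43 (12.4%) had an unadjusted p under 0.05, 18 higher and 25 lower. The larger of a gene's 2 within-origin SDs had a median of 1.41 log2 CPM among the 230 genes past 1 log2, against 0.45 over all genes. Since an estimate is noisier where spread is larger, these counts describe where large values lie.

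Single libraries moved many of the large differences. Of the 230 genes past 1 log2, 78 stayed past 1 in the same direction in every one of the 18 leave-one-out fits, 29 higher and 49 lower in low altitude spleens. The other 152 fell short or left the tested genes in at least 1 fit, and leaving out H1 alone removed 64. Of the 756 genes at an unadjusted p under 0.05, 277 stayed there in all 18 fits. Such genes numbered 1026 of 13218 without L8, 1003 of 13195 without L3 and 527 of 13186 without H1, the highest and lowest values. With no difference 654.6 of 13092 are expected, above the number without H1 and below those without L8 and L3. The numbers without H4, L7, H7 and L4 were also below it, at 593, 596, 601 and 632. In each of the 18 fits 0 genes passed the adjusted threshold.

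**Figure D4:**
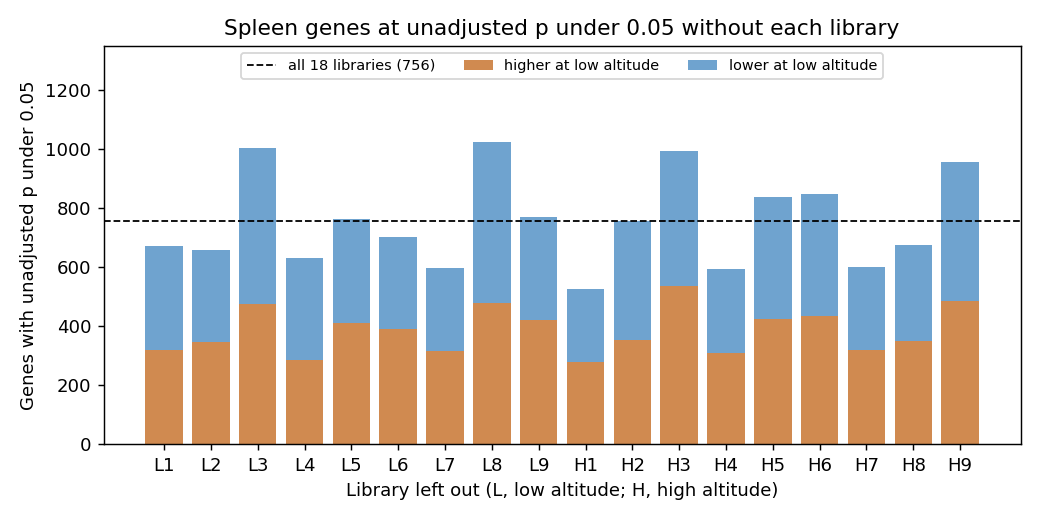
Number of spleen genes at an unadjusted edgeR p under 0.05 (y axis) when the library on the x axis is left out, split into genes higher (orange) and lower (blue) in low altitude spleens; the dashed line marks the 756 genes of the fit with all 18 libraries. Bars run from 527 without H1 to 1026 without L8.

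Component 1 and the difference between origins shared genes. Among the 756 genes at an unadjusted p under 0.05, 160 (21.2%) had more than 50% of their variance along component 1, against 10.8% of all genes tested. Of these, 98 were among the 370 lower and 62 among the 386 higher genes. Of the 6 libraries apart, 4 are of high altitude origin. Mean scores on component 1 were 11.4 at low and -11.4 at high altitude. That difference lay within the spread (exact permutation p = 0.134, adjusted p = 0.446). The 98 lower genes were all higher in the libraries on the negative side of component 1, and the 62 higher genes were all lower there. The unequal mean scores place such genes on these sides, so the sharing does not show that component 1 depends on origin. Without the 6 libraries, 7 low altitude spleens stood against 5 high altitude spleens. Then 450 genes (3.35%) had an unadjusted p under 0.05, under the 671.5 expected, and 181 of them were among the 756; 278 were higher and 172 lower in low altitude spleens. In that smaller fit 0 genes passed the adjusted threshold in edgeR.

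DESeq2, which estimates the spread in another way, called 20 of 13092 genes (0.153%) at an adjusted p under 0.05, 6 higher and 14 lower in low altitude spleens, and limma-voom called 0. At an unadjusted p under 0.05 DESeq2 had 885 genes (6.76%) and limma-voom 652 (4.98%), of which 389 were higher and 263 lower. All 20 DESeq2 genes had an unadjusted edgeR p under 0.05, and for 0 of them did the 2 origins not overlap. Their edgeR log2 fold changes ran in size from 0.45 to 4.19, at average levels from 0.15 to 9.02 log2 CPM, and 6 of them had more than 50% of their variance along component 1. Leaving out 1 library gave 8 calls without H1, 9 without H7, 11 without H8, 12 without L6, 13 without L7 and 34 without H3, and 14 to 29 without any of the others. Each of these leave-one-out fits tested 13134 to 13239 genes. Without the 6 libraries apart DESeq2 called 12 of 13430 genes, and 0 of these were among the 20.

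Named by rule were the genes with the smallest p and the most abundant genes at an unadjusted p under 0.05, 1 of each per direction. None of the 4 passed edgeR's adjusted threshold, and each had overlapping origins. ENSGALG00000036403, with the smallest p of all, was a rare transcript whose mean CPM was 11.8 times higher in spleen than in either other tissue. That spleen mean is over both origins and came mostly from the low altitude spleens, and the ratio was not taken per origin. The gene had 0.4931 CPM in the lowest low altitude spleen, 4.46 in the median one and 8.92 in the highest, against 0, 0.499 and 0.822 CPM in high altitude spleens. That is 7 to 114 counts per library at low and 0 to 11 at high altitude. In low altitude spleens the values fell in a wide range, with L5 and L9 at 7 and 9 counts inside the high altitude range and the other 7 above it. The log2 fold change was 3.35 (SE 0.65, 95% interval 1.997 to 4.71, edgeR adjusted p = 0.511, DESeq2 adjusted p = 0.000411), and 3.003 without the 6 libraries apart.

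ENSGALG00000040832, the most abundant gene higher at low altitude at an unadjusted p under 0.05, ranked 34 of all genes tested. It had 1336 CPM in the lowest low altitude spleen, 2525 in the median one and 3938 in the highest, against 609, 1554 and 2625 CPM in high altitude spleens. The origins overlapped widely, and 7 of 9 low altitude spleens were above the high altitude median. Its log2 fold change was 0.55 (SE 0.25, 95% interval 0.03 to 1.07, edgeR adjusted p = 0.844), and 0.35 without the 6 libraries apart. The edgeR unadjusted p of 0.0381 that led to its naming held under 0.05 in 7 of the 18 leave-one-out fits.

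ENSGALG00000004339, with the smallest p among lower genes, had 1.41, 4.28 and 7.48 CPM in the lowest, median and highest low altitude spleen, against 3.33, 10.9 and 48.5 CPM in high altitude spleens. All 9 low altitude spleens were below the high altitude median. The highest values were those of H7, H1, H4 and H8, at 48.5, 40.9, 35.6 and 21.3 CPM, which are the 4 high altitude libraries apart on component 1, and 56.3% of the gene's variance lay along that component. The log2 fold change was -2.22 (SE 0.46, 95% interval -3.19 to -1.26, edgeR adjusted p = 0.511, DESeq2 adjusted p = 0.000868). It was -0.94 without the 6 libraries apart, with an edgeR adjusted p of 0.9999.

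ENSGALG00000015286, the most abundant gene lower at low altitude at an unadjusted p under 0.05, had a larger SD among high altitude spleens, which was not tested. It had 433, 506 and 593 CPM in the lowest, median and highest low altitude spleen, against 418, 619 and 1281 CPM in high altitude spleens. The low altitude spleens lay close together, with an SD of 0.16 log2 CPM against 0.57 at high altitude, and all 9 were below the high altitude median while none was below the lowest high altitude spleen. H1, H7, H3 and H4 had the highest values. Its log2 fold change was -0.59 (SE 0.19, 95% interval -0.99 to -0.18, edgeR adjusted p = 0.805), and -0.35 without the 6 libraries apart.

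**Figure D5:**
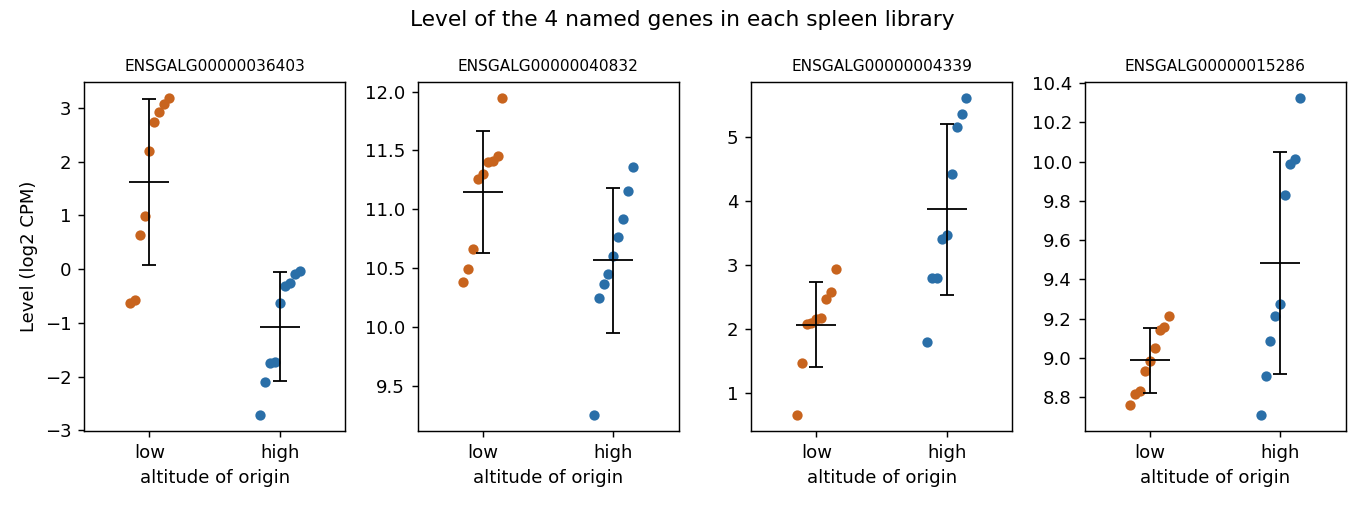
Level in log2 CPM (y axis, own scale in each panel) of the 4 named genes in the 9 low altitude (orange) and 9 high altitude (blue) spleens, 1 point per library, with the mean and SD in black. In the first panel 2 low altitude spleens lie within the high altitude range, and in the third the 4 highest points are H7, H1, H4 and H8.

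Genes selective for spleen varied more and differed more in size than genes under 2-fold, a class that also holds genes higher in heart or breast muscle. Of the 2031 tested genes at least 8 times higher in spleen than in either other tissue, 94 (4.63%) were past 1 log2, 49 higher and 45 lower in low altitude spleens, against 80 of 6325 genes (1.26%) under 2-fold and 1.76% of all genes. At an unadjusted edgeR p under 0.05 stood 167 (8.22%) of the selective genes, 88 higher and 79 lower, against 5.77% of all genes; 0 passed the adjusted threshold. Their median SD was 0.58 log2 CPM among low and 0.60 among high altitude spleens, against 0.37 and 0.37 for the genes under 2-fold. Without the 6 libraries apart, 76 of 2026 selective genes (3.75%) were past 1 log2, against 45 of 6318 (0.712%) under 2-fold and 1.47% of all genes. At an unadjusted edgeR p under 0.05 were then 115 selective genes (5.68%), 54 higher and 61 lower, and 0 passed the adjusted threshold. In that fit the share was 3.35% of all genes and 2.85% of the genes under 2-fold (180 genes, 147 higher and 33 lower).

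Set beside the other tissues, spleen had the smallest spread between libraries. Over the 9511 genes tested in all 3 tissues, the median pooled SD within an altitude was 0.33 log2 CPM in spleen, 0.45 in heart and 0.53 in breast muscle. The SD was lower in spleen than in heart for 78.1% of these genes and lower than in breast muscle for 85.3%. The median absolute log2 fold change between the origins was 0.11 in spleen, 0.16 in heart and 0.27 in breast muscle. The median SE followed the same order, at 0.16 in spleen, 0.22 in heart and 0.26 in breast muscle. Noisier estimates are larger in size, so these medians alone do not rank the tissues by effect of origin. An interaction of tissue and altitude in edgeR asked whether spleen differed from another tissue in its altitude difference. The 36 libraries of a pair of tissues were taken as independent, although the labels reuse the codes in each tissue. Of 13918 genes, 0 passed for spleen and heart (497 or 3.57% at an unadjusted p under 0.05) and 0 of 13597 for spleen and breast muscle (1703 or 12.5%). For ENSGALG00000004339 the log2 fold change was -2.22 (SE 0.46) in spleen and 0.21 (SE 0.26) in breast muscle, and the interaction of -2.41 (SE 0.53) did not pass (edgeR adjusted p = 0.0575). This gene was named for its small p in these same spleens, so its interactions are no independent test of whether spleen differs. The interaction with heart was -2.06 (SE 0.57, edgeR adjusted p = 0.99998), although this gene did not enter the fit of heart alone. Without the 6 spleen libraries apart the interaction was -1.16 (SE 0.44, edgeR adjusted p = 0.348) against breast muscle and -0.82 (SE 0.46, edgeR adjusted p = 0.99999) against heart. The interactions of the other named genes did not pass either (edgeR adjusted p from 0.806 to 0.99998). Of these, ENSGALG00000036403 did not enter the fits of heart or breast muscle alone. Its interaction was 0.65 (SE 10.99) against breast muscle and -0.048 (SE 0.288) against heart. Its counts there were too low for those fits, so these values do not decide whether spleen differs. ENSGALG00000015286 had log2 fold changes of -0.59 in spleen, -0.54 (SE 0.21) in heart and -0.74 (SE 0.60) in breast muscle, none of which passed.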

How the data were processed

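Counts per gene were deposited by the authors as 1 file of whole numbers per library, with no normalization in the values; each file listed 24881 identifiers, and no row lacked a gene. The submitters' processing notes name HISAT2 2.0.4, featureCounts, FastQC, Cuffdiff, Cufflinks and the build galGal4, with no role or order. Per the labels' protocols, the kit was stranded; whether counting used strand is not stated there; antisense, overlapping and near-identical genes are therefore uncertain. No identifier matched the reference table of 25635 genes (GRCg7b), so the 15 gene lists, cell type markers included, could not be used.

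The 18 spleen libraries were fitted alone with edgeR 4.0.16 in R 4.3.3 (TMM factors, default filter on low counts, robust quasi-likelihood test of 9 low against 9 high altitude libraries); 13092 genes were tested, and those left out held 0.142% of the counts. The SE is the log2 fold change divided by the root of F. Log2 CPM used a prior count of 2. Library measures were tested by exact two-sided permutation over the 48620 splits of 9 and 9, adjusted over 10 measures. The genes selective for heart and for breast muscle had at least 20 CPM and 32 times the mean of either other tissue. Genes called selective for spleen were at least 8 times higher there than in either other tissue in mean CPM over both altitudes, with no CPM minimum. limma 3.58.1 and DESeq2 1.42.0 were alternatives. With no symbols, the rule for named genes gave, per direction, the identifier with the smallest p at an average of at least 1 log2 CPM, and the most abundant one at an unadjusted p under 0.05. Same-numbered L and H libraries deviated together in some pairs and not in others (correlations -0.32 to 0.40, 5 of 9 pairs above 0.1). The labels give no pairing, and the numbers were not used as pairs in the main fit. The closest of the 153 library pairs differed by far more than counting error, so all libraries were kept. The members, gene groups and alternatives were chosen with earlier results of these data known.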

Additional observations from a re-analysis of the deposited data

How the results depend on the processing

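No gene passed edgeR's adjusted threshold with RLE or upper-quartile factors, without a filter, with at least 1 CPM in 9 libraries, with the log2 total count as a covariate, without the 20 most abundant genes, without the 6 libraries apart on component 1 or without any single library, nor by limma-voom with or without quality weights; DESeq2 called 20. With the replicate number as a block, 0 genes passed and 739 had an unadjusted p under 0.05, so it changed no adjusted call; the unadjusted p of ENSGALG00000040832 was 0.0737, past the 0.05 by which it was named. Of the low altitude libraries, 2 of 9 were closest to the high altitude library of their own number. Without a filter 1351 of 20611 identifiers had an unadjusted p under 0.05, 694 higher and 657 lower. In the main fit there were 756 of 13092. Without a filter the median absolute log2 fold change was 0.21, and 1 of the 20611 had origins that did not overlap. Many more low genes enter that unfiltered fit. Without the 6 libraries apart, chosen after seeing the data, the numbers were 450 in all and 172 lower, and 24 genes (0.179%) had origins that did not overlap; with 7 against 5 libraries fewer values have to separate. Leaving out 1 library gave 527 to 1026 genes at that p, 279 to 538 higher and 248 to 548 lower, 0 to 2 genes without overlap, a median absolute log2 fold change of 0.12 to 0.15, and 8 to 34 DESeq2 calls.

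Low minus high altitude differences of library measures stayed within the spread in most settings. Leaving out 1 library gave -0.0168 to 0.0114 for the distance from the own group, -0.00252 to 0.0088 for the correlation with it (exact permutation p of 0.0335 without H6 and 0.0241 without L8), 16.9 to 30.53 for component 1 and -4.58 to 7.68 for component 2. Genes detected differed by 24.9, and by -40.2 after thinning all libraries to the smallest total. Components 3 to 5 were not run under the alternatives, as their order is not fixed. The signs of the 4 named genes held in every alternative that tested them. They were named from these same libraries at an unadjusted edgeR p under 0.05, so their kept signs are no independent support. ENSGALG00000036403 was not tested under the filter of at least 1 CPM in 9 libraries.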
